A study of Arabidopsis thaliana with 32 samples.

Results

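Shoots of *Arabidopsis thaliana* seedlings of the Col-0 accession were compared after 0.5 h and after 0.25 h at 38 °C, with 2 arrays at each time. The comparison shows which transcripts moved during the second 0.25 h of a heat treatment. It used 4 of the 32 arrays of the series and every probe set for a gene, 22746 in all, with no choice of members by their values. A filter on low signal left 16782 probe sets for the tests.

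The plants of both groups grew at 24 °C on Murashige and Skoog medium under 16 h days and were moved to 38 °C when 16 days old, at 3 h of light. In the 0.5 h group shoots were taken after 0.5 h at 38 °C, and in the 0.25 h group after 0.25 h at 38 °C. Roots taken at both times, and shoots after 1 h and 3 h of heat, served as points of comparison. Shoots at 9 h of recovery from 3 h of heat are given for a few genes, only for the spread of their replicates. Roots after 1 h of heat are given for AT1G04770. Unheated plants were not analysed here, so a level at 0.25 h is a level already under heat, and the 2 groups also differ by 0.25 h in clock time. The labels do not say whether replicates were separate cultures. The p-values therefore rest only on the spread of arrays within groups, possibly technical. That spread was pooled over all 16 groups of the series, not taken from the 4 compared arrays alone. The small number of arrays limits the precision.

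Heat unfolds proteins, and plant cells answer it within minutes by transcribing chaperone genes under the control of heat shock factors. Small heat shock proteins bind unfolding proteins. HSP70 refolds them with the help of J-domain proteins, which deliver the substrates, and of nucleotide exchange factors. HSP90 finishes the folding of many signalling proteins, and Hop proteins pass substrates to it from HSP70.

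The 4 shoot arrays were alike in overall signal, with a median between 36.2 and 38.9. Log2 signals of the replicates correlated at 0.989 at 0.5 h and 0.991 at 0.25 h. The actin 3′/5′ ratio, a sign of RNA integrity, was 5.86 and 3.82 at 0.5 h, against 3.68 and 5.81 at 0.25 h. The tissue label held: summed signal of 4 leaf markers was 14994 and 15792 at 0.5 h, against 17281 and 15433 at 0.25 h. Their member RCA, the activase of the carbon-fixing enzyme Rubisco, was at 4532 and 4607 at 0.5 h, against 5025 and 4393 at 0.25 h, and between 82.7 and 105 in roots at these times. The single measured root hair marker, the expansin EXPA7, was at 10.1 and 15.7 in shoots at 0.5 h, against 11.4 and 15.6 at 0.25 h. In roots it was between 25.8 and 51.6.

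Between 0.25 h and 0.5 h of heat, 174 probe sets rose in shoots (1.04% of those tested) and 61 fell (0.363%), 235 in all (1.4%). To pass, a probe set needed a Benjamini-Hochberg adjusted p from limma below 0.05 and a log2 difference of 1 or more in either direction. With no demand on size, 1967 probe sets (11.7%) were below that adjusted p. Differences were taken on the scale of log2(signal + 10.7), which understates those at low signal. The median log2 difference over all 16782 was −0.01. Among the rises the median log2 difference was 1.27, and 35 reached 2 or more, up to 5.81 in a probe set with no gene named here. Median signal of the rises was 207 at 0.5 h, against 63.9 at 0.25 h. Among the decreases the median log2 difference was −1.32, and 3 had a size of 2 or more. Their median signal was 74.8 at 0.5 h, against 220 at 0.25 h. Both 0.5 h arrays were above both 0.25 h arrays in all 174 rises (25.7% of all probe sets) and below them in all 61 decreases (29.4%), which the choice of these sets makes likely. A single gene was named for 82 of the rises and for 25 of the decreases, which covered 24 genes. In whole shoots, less RNA per cell and fewer cells of a type cannot be told apart.

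The largest named rise on this log2 scale was that of AT5G48570, named ROF2 or FKBP65, a peptidyl-prolyl isomerase of the FKBP type that binds HSP90. ROF2 was at 1541 and 880 at 0.5 h, against 58.0 and 75.8 at 0.25 h. Both 0.5 h arrays lay far above both 0.25 h arrays, with an 18.1-fold higher mean signal (log2 difference 3.93 ± 0.22 SE, limma adjusted p = 1.08e-11). Hop3, the adaptor between HSP70 and HSP90, was at 533 and 229 at 0.5 h, against 24.0 and 33.5 at 0.25 h. Its rise was 3.20 ± 0.20 (limma adjusted p = 7.58e-11). The related Hop2 was at 339 and 221 at 0.5 h, against 240 and 204 at 0.25 h (0.30 ± 0.16, limma adjusted p = 0.262), and its arrays overlapped. The other rise in the list of HSP90, HSP100 and their partners was that of AT3G12050, which was at 958 and 698 at 0.5 h, against 261 and 281 at 0.25 h (1.56 ± 0.11). BOB1, a NudC-type chaperone, was at 0.66 ± 0.12 with a limma adjusted p of 0.000693, below the size asked for. Of 8 members of that list 3 rose and 0 fell, with a median of 0.48.

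Among small heat shock proteins, AT1G54050 was at 1615 and 865 at 0.5 h, against 100 and 110 at 0.25 h. Its rise was 3.37 ± 0.27 SE (11.8-fold in mean signal, limma adjusted p = 4.63e-09). AT5G51440 was at 410 and 206 at 0.5 h, against 22.1 and 19.98 at 0.25 h (3.25 ± 0.25). AT2G19310 was at 888 and 498 at 0.5 h, against 124 and 156 at 0.25 h (2.17 ± 0.16). In each of these the lower 0.5 h array was more than 3-fold above the higher 0.25 h array.

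Like AT5G51440, the other members of the family that rose started from low signals. AT2G29500 was at 268 and 58.2 at 0.5 h, against 6.99 and 2.60 at 0.25 h (3.17 ± 0.36, limma adjusted p = 1.14e-06). Its ratio of mean signals, 34.0-fold, was above that of ROF2, but both 0.25 h signals lay under the added constant. AT5G37670 was at 221 and 80.8 at 0.5 h, against 25.1 and 22.7 at 0.25 h (2.07 ± 0.32). AT1G53540 was at 73.2 and 29.6 at 0.5 h, against 2.35 and 11.7 at 0.25 h (1.76 ± 0.31). Groups did not overlap for these genes, but their 0.5 h replicates lay far apart. The last of them was at 0.88, under the size asked for, with a constant 4 times as large added before the log. Of 9 small heat shock protein genes tested 6 rose, 0 fell and 3 did not pass, with a median of 2.07. The 3 others, ATHSP22.0, AT1G52560 and AT4G21870, lay between −0.04 and 0.10.

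Members of the list of HSP70 co-chaperones and J-domain proteins were among the steepest rises as well. The J-domain gene AT3G14200 was at 518 and 313 at 0.5 h, against 16.6 and 29.4 at 0.25 h (3.64 ± 0.24 SE, limma adjusted p = 1.53e-10), an 18.1-fold higher mean signal. AT2G20560, also on the J-domain list, was at 790 and 340 at 0.5 h, against 46.5 and 47.7 at 0.25 h (3.20 ± 0.24). Fes1A, a nucleotide exchange factor of HSP70, was at 718 and 335 at 0.5 h, against 66.9 and 59.7 at 0.25 h (2.76 ± 0.22). AT1G66080 of the same list, with no role of its own annotated here, was at 230 and 123 at 0.5 h. At 0.25 h it was at 19.9 and 30.1 (2.34 ± 0.22). Each of these genes had both 0.5 h arrays above both 0.25 h arrays, which their choice required. Of the 12 members tested, 4 rose, 0 fell and 8 did not pass, with a median of 0.43, and the filter had removed 3 more.

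In the HSP70 family itself, AT3G09440 already had a high signal at 0.25 h. It was at 2025 and 1420 at 0.5 h, against 272 and 305 at 0.25 h (2.51 ± 0.19 SE, limma adjusted p = 1.25e-09), with both 0.5 h arrays far above both 0.25 h arrays. Hsp70-2 was at 156 and 122 at 0.5 h, against 83.0 and 76.7 at 0.25 h. Its arrays did not overlap, but the difference of 0.72 ± 0.26 did not pass (limma adjusted p = 0.0726). Of 4 members 1 rose and 0 fell, with a median of 0.41. Over these 4 chaperone lists, 14 of 33 tested members rose (42.4%, beside 1.04% of all probe sets) and 0 fell, with a median of 0.52 beside −0.01. The lists were chosen with earlier results of these data known, so this share is a description. Only 36 of their 78 loci had a named probe set, and signals of different probe sets are not comparable per transcript length.

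**Figure D1:**
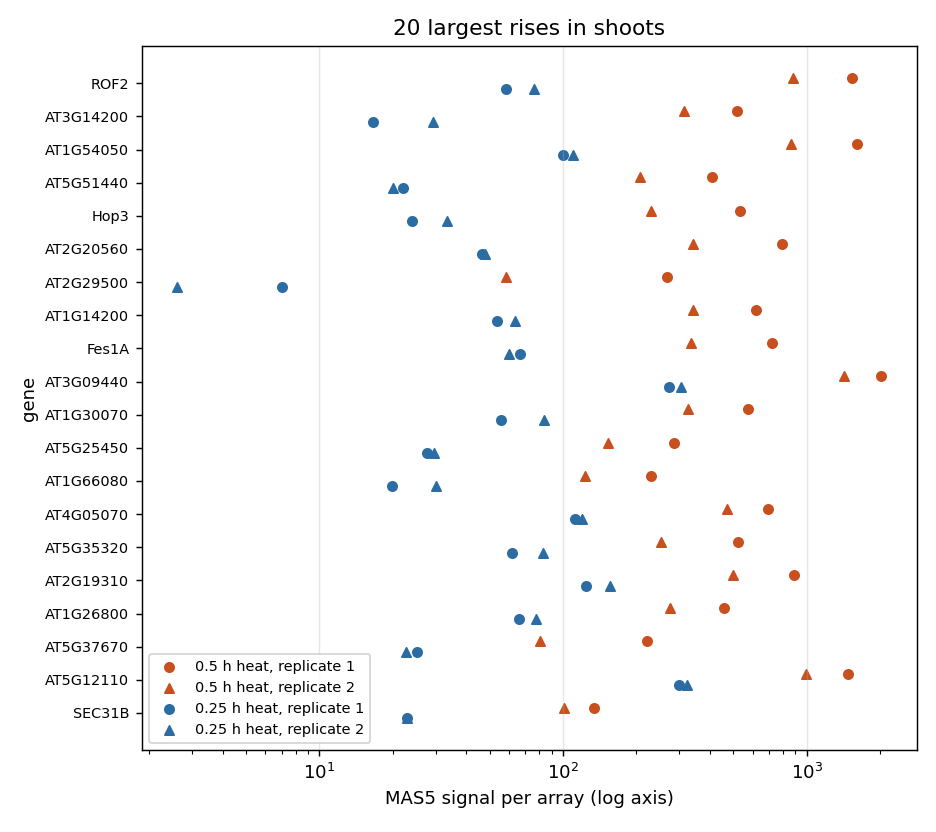
MAS5 signal on each array (log axis) for the 20 largest named rises in shoots, in order of log2 difference, with 0.5 h in orange above 0.25 h in blue, circles for replicate 1 and triangles for replicate 2. The choice of these 20 genes required both 0.5 h arrays to lie above both 0.25 h arrays. In all 20 replicate 1 lay above replicate 2 at 0.5 h.

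Not every large rise lay in a chaperone list. AT1G14200 was at 620 and 343 at 0.5 h, against 53.6 and 63.7 at 0.25 h, with no overlap (2.77 ± 0.17 SE, limma adjusted p = 6.51e-11). AT1G30070 (2.49 ± 0.22), AT5G25450 (2.49 ± 0.21), AT4G05070 (2.20 ± 0.18), AT5G35320 (2.19 ± 0.20), AT1G26800 (2.15 ± 0.17) and AT5G12110 (1.93 ± 0.18) completed the upper range with no role annotated here. SEC31B (AT3G63460), a coat protein of the vesicles that leave the endoplasmic reticulum, was at 134 and 101 at 0.5 h, against 22.9 and 22.8 at 0.25 h. Its rise of 1.92 ± 0.31 (limma adjusted p = 0.000166) was 5.15-fold in mean signal. At 9 h of recovery its shoot replicates 1 and 2 lay far apart, at 126 and 26.7.

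Of the 82 named rises, 68 lay outside the chaperone lists. The following were picked for their annotated roles, after their values were seen. SGT1A, a co-chaperone of HSP90 in plant immunity, was at 682 and 401 at 0.5 h, against 150 and 194 at 0.25 h (1.56, limma adjusted p = 1.34e-05). The receptor kinase FER (FERONIA) was at 293 and 239 at 0.5 h, against 103 and 95.6 at 0.25 h (1.33, limma adjusted p = 6.46e-05). HEME2, a uroporphyrinogen decarboxylase of the heme and chlorophyll pathway, was at 906 and 929 at 0.5 h, against 379 and 413 at 0.25 h (1.19). ATCES1, an alkaline ceramidase, was at 101 and 122 at 0.5 h, against 22.8 and 35.05 at 0.25 h (1.64). SNF7.2, a subunit of the membrane-remodelling ESCRT-III complex, was at 167 and 88.9 at 0.5 h, against 36.1 and 56.2 at 0.25 h (1.25). In all 5 the 2 times did not overlap. PDF1.2b, a plant defensin, rose by 1.45 ± 0.44 SE (limma adjusted p = 0.0328), with 49.2 and 109 at 0.5 h, against 14.2 and 27.8 at 0.25 h. Its replicates lay far apart, also at 1 h, with 130 and 34.6.

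The replicates at 0.5 h differed in one direction. Replicate 1 lay above replicate 2 in 137 of the 174 rises (78.7%, beside 43.2% of all probe sets) and in all 14 chaperone list members that rose. Over those 14 the signal of replicate 1 was 1.37 to 4.60 times that of replicate 2, with a median of 1.93. Over all 174 rises replicate 1 minus replicate 2 had a median log2 of 0.26 at 0.5 h and of 0.07 at 1 h. Leaving out an array leaves 1 at that time, which is then assumed to vary like the other groups. In that fit, without replicate 1, all 14 passed with log2 differences of 1.23 to 3.53, and without replicate 2 all 14 passed too. Of the 139 rises under a log2 of 2, 105 passed without replicate 1 and 128 without replicate 2. The part of array or harvest in this spread was not tested.

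Decreases were fewer, and most of their genes carry no annotated role here. AT1G04770 was at 87.4 and 73.6 at 0.5 h, against 355 and 386 at 0.25 h. That 4.60-fold lower mean signal was the largest named decrease in log2 (−2.06 ± 0.17 SE, limma adjusted p = 5.88e-09). AT2G47440 was at 202 and 242 at 0.5 h, against 856 and 812 at 0.25 h (−1.86 ± 0.16, limma adjusted p = 1.42e-08). AT3G19680 was at 48.3 and 58.9 at 0.5 h, against 240 and 149 at 0.25 h (−1.64 ± 0.24). AT3G56200 was at 95.4 and 84.5 at 0.5 h, against 276 and 314 at 0.25 h (−1.60 ± 0.16). Replicates of these genes lay close together at 0.5 h, and the times did not overlap, which their choice required.

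EXO (EXORDIUM), a brassinosteroid-responsive gene of leaf growth, was at 158 and 145 at 0.5 h, against 748 and 444 at 0.25 h. Its 0.25 h replicates lay far apart, and the decrease of 1.86 on the log2 scale (SE 0.39, limma adjusted p = 0.00214) missed the threshold without 0.25 h replicate 1 (adjusted p = 0.0631). DEWAX, a transcription factor that represses wax synthesis, was at 127 and 165 at 0.5 h, against 402 and 345 at 0.25 h (−1.30 ± 0.27, limma adjusted p = 0.0022). BZIP53, a leucine zipper factor of seed maturation and low energy, was at 145 and 167 at 0.5 h, against 407 and 325 at 0.25 h (−1.17 ± 0.15). Both factors had lower levels on each 0.5 h array than on either 0.25 h array, which their choice required.

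The rest of the 20 largest named decreases lay between −1.52 and −1.06, and AT4G37240, AT2G44500, AT1G13650 and AT2G30600 fell by less. AT3G06070 was at 83.8 and 104 at 0.5 h, against 353 and 235 at 0.25 h (−1.52 ± 0.18), and AT2G27420 at 69.3 and 80.3, against 218 and 223 (−1.44 ± 0.16). AT1G25550 (−1.27 ± 0.11), AT1G02660 (−1.38 ± 0.20), AT1G11380 (−1.13 ± 0.13), AT1G23030 (−1.14 ± 0.19) and AT2G25735 (−1.10 ± 0.23) passed as well. Signals of AT4G32800 (−1.38), AT1G50040 (−1.25) and AT5G42860 (−1.06) at 0.5 h were under 10 on both arrays. AT1G50040 missed the threshold without 0.5 h replicate 1 (limma adjusted p = 0.134), without 0.5 h replicate 2 (0.058) and without 0.25 h replicate 1 (0.339). AT5G42860 missed it without 0.5 h replicate 2 (0.137) or 0.25 h replicate 1 (0.157), and AT4G32800 without 0.5 h replicate 1 (0.0508) or 0.25 h replicate 2 (0.0536). AT3G62950 was at 52.3 and 14.5 at 0.5 h, against 80.1 and 72.8 at 0.25 h, and its difference was −1.13 with both arrays and −0.47 without 0.5 h replicate 2 (limma adjusted p = 0.122). AT1G23030 was at −0.998 without 0.5 h replicate 1 and at −0.96 without 0.25 h replicate 1, each just short of the size asked for. With a constant 4 times as large, 8 of the 20 named decreases were below it, between −0.43 and −0.997: AT1G02660, AT1G11380, AT1G23030, AT1G50040, AT2G25735, AT3G62950, AT4G32800 and AT5G42860. In a fit of the 4 compared arrays alone AT3G62950 (adjusted p = 0.107) and AT5G42860 (0.0557) were lost, and with shoot arrays alone AT1G50040 (0.104).

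**Figure D2:**
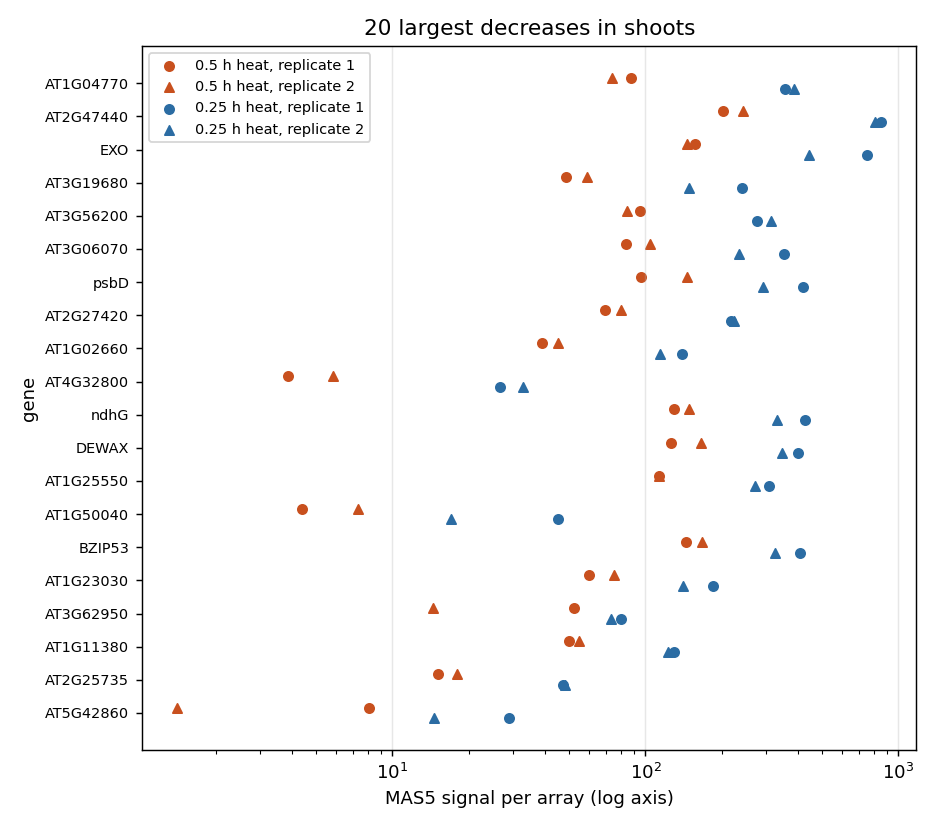
MAS5 signal on each array (log axis) for the 20 largest named decreases in shoots, in order of log2 difference, with 0.5 h in orange above 0.25 h in blue, circles for replicate 1 and triangles for replicate 2. The choice of these 20 genes required both 0.5 h arrays to lie below both 0.25 h arrays. Signals at 0.5 h were under 10 in AT4G32800, AT1G50040 and AT5G42860.

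Plastid-encoded genes, which are transcribed inside the chloroplast, mostly stayed under the threshold. Of 69 tested 1 rose and 2 fell, and 45 lay below 0. Their median log2 difference was −0.15, beside −0.01 over all probe sets. With no demand on size, 14 had a limma adjusted p below 0.05, beside 11.7% of all probe sets. Of these 14, 11 lay below 0 and 3 above. The gene psbD, for the D2 core protein of photosystem II, was at 96.5 and 147 at 0.5 h, against 418 and 292 at 0.25 h (−1.47 ± 0.38 SE, limma adjusted p = 0.0107). This call was lost without 0.5 h replicate 1 (adjusted p = 0.129), without 0.25 h replicate 1 (0.138) and with shoot arrays alone in the fit (0.0623). The gene ndhG, for a subunit of the NDH complex, was at 129 and 149 at 0.5 h, against 426 and 330 at 0.25 h (−1.37 ± 0.26, limma adjusted p = 0.000774). In contrast accD, for a subunit of plastid acetyl-CoA carboxylase, was at 783 and 701 at 0.5 h, against 375 and 317 at 0.25 h (1.08 ± 0.18). After quantile normalization accD was at 0.98, and without 0.25 h replicate 2 at 0.96. The ribosomal protein gene rps14 was at 113 and 109 at 0.5 h, against 280 and 185 at 0.25 h (−0.97 ± 0.25, limma adjusted p = 0.0115), short of the size asked for. Each of these genes was measured by 1 probe set, and the summed signal of the 69 was 99084 and 104642 at 0.5 h, against 118370 and 101019 at 0.25 h. That sum overlapped between the times.

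Mitochondrion-encoded genes did not pass in either direction (0 of 10 genes and 0 of their 17 probe sets, median −0.09 with 1 probe set per gene). With no demand on size and 1 probe set per gene, 0 of the 10 had a limma adjusted p below 0.05, beside 11.7% of all probe sets. The 7 probe sets of nad1 disagreed, ranging from −0.59 to 0.51, and 1 of them, at −0.43, had an adjusted p of 0.0181.

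Genes of endoplasmic reticulum stress and folding were all above 0 without passing. Of 9 tested 0 rose and 0 fell by the rule, with a median of 0.32, while 4 had a limma adjusted p below 0.05 at a smaller size. DER1, of the Derlin family of protein retrotranslocation, was at 250 and 205 at 0.5 h, against 109 and 109 at 0.25 h (0.98 ± 0.10, limma adjusted p = 1.39e-07). BZIP28, a membrane-held transcription factor of the unfolded protein response, was at 184 and 163 at 0.5 h, against 78.1 and 107 at 0.25 h (0.84 ± 0.11). In both genes the times did not overlap. BZIP60, another factor of that response, was at 0.02. HSA32, a heat-stress-associated protein that prolongs acquired thermotolerance, was at 107 and 50.9 at 0.5 h, against 35.8 and 43.9 at 0.25 h (0.76 ± 0.24), also below the size asked for.

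Among calmodulin-like and touch genes 1 of 10 rose and 0 fell (median −0.05). The rise was that of AT3G10300, at 32.8 and 33.3 at 0.5 h, against 13.1 and 5.01 at 0.25 h (1.18 ± 0.28). It was at 0.88 without 0.25 h replicate 2 (limma adjusted p = 0.127), at 0.55 with a constant 4 times as large, and its adjusted p was 0.0509 with shoot arrays alone. AT4G27280 of the same list was at 72.9 and 73.9 at 0.5 h, against 160 and 130 at 0.25 h (−0.88 ± 0.24, limma adjusted p = 0.0168), which did not reach the size.

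The other lists had 0 members past the rule in shoots. With no demand on size, 3 of 17 wall-loosening genes had a limma adjusted p below 0.05, beside 11.7% of all probe sets. In each of the rest 0 or 1 members did. Rapid stress transcription factors (3 tested) had a median of −0.09, and the zinc finger repressor STZ was at 19.4 and 18.3 at 0.5 h, against 17.6 and 24.4 at 0.25 h. Ubiquitin ligases and kinases of rapid stress (4 tested) had a median of 0.00, with PUB22 at −0.52. Abscisic acid and cold response genes (4 tested) had a median of −0.04, among them the dehydrin gene COR47 at 0.44. The auxin list (4 tested) had a median of 0.27, with IAA29 at 0.50 ± 0.16 (limma adjusted p = 0.0488). Nuclear photosynthesis genes (8 tested, median −0.07), cell division and histone genes (9 tested, median 0.03) and autophagy genes (12 tested, median 0.03) lay close to the median of all probe sets. Wall-loosening genes (17 tested, median 0.05) spread further, from the expansin-like EXLA2 at −0.84 to the expansin EXPA4 at 0.81. EXPA4 was at 110 and 126 at 0.5 h, against 51.7 and 75.4 at 0.25 h (limma adjusted p = 0.0102). The circadian list had a single named gene, GI, at 0.07.

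**Figure D3:**
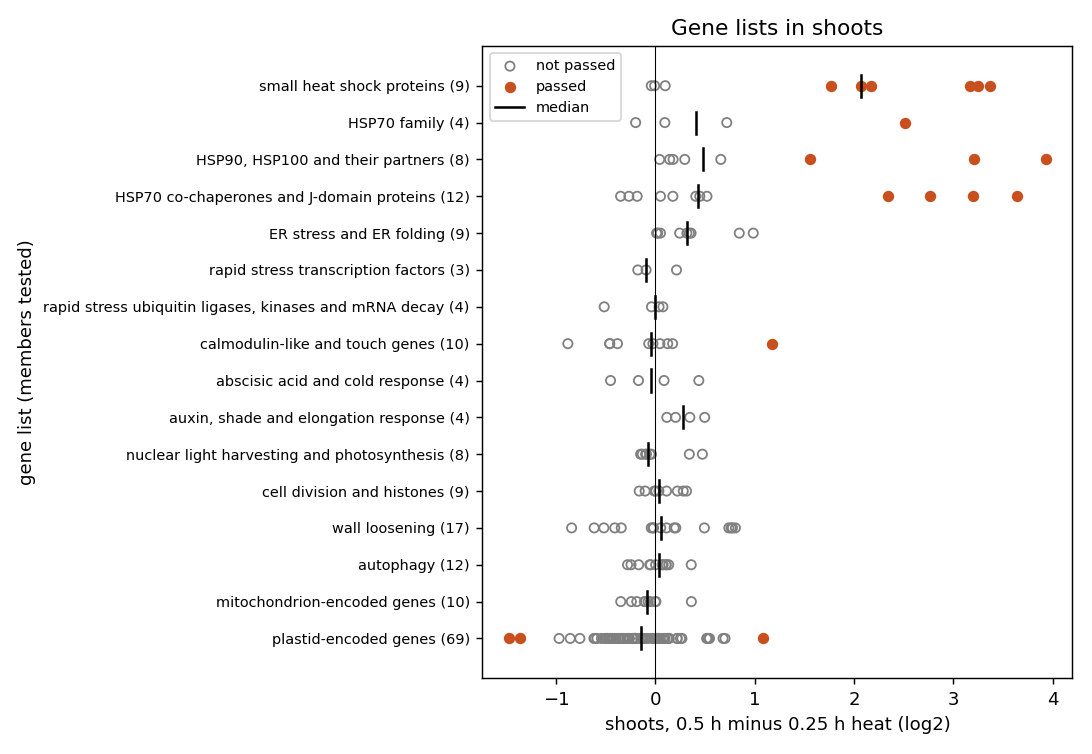
Log2 difference of 0.5 h minus 0.25 h of heat in shoots for each member of the gene lists with 3 or more tested members, 1 circle per gene, filled where the gene passed, with a black bar at the list median. The filled circles at the right belong mainly to the chaperone lists, where 14 of 33 members rose, and the plastid-encoded genes hold both decreases. The lists were chosen with earlier results of these data known.

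The same step was then read in roots, which share no array with it. There 133 probe sets rose (0.793%) and 91 fell (0.542%). Of the 174 shoot rises 66 also rose in roots, which is 37.9% of the shoot rises and 49.6% of the root rises, and 1 fell in roots. A positive root difference was found in 170 of the 174 (97.7%, beside 49.1% of all probe sets), with a median log2 of 0.80. The signal of 25S ribosomal RNA in roots was 2230 and 2601 at 0.5 h, against 878 and 566 at 0.25 h. In shoots it was 110 and 114, against 180 and 112. The part of such shifts in the agreement of the tissues was not tested. All 14 chaperone list members that rose in shoots rose in roots, by 1.10 to 3.07. Of the 61 shoot decreases 3 also fell in roots (4.92% of the shoot decreases, 3.30% of the root decreases) and 0 rose, with a median root difference of −0.13.

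The difference between the tissues was tested as the shoot step minus the root step. Larger and smaller refer to the signed step, so a deeper decrease in shoots counts as smaller in shoots. It was larger in shoots for 106 probe sets (0.632%) and smaller in shoots for 103 (0.614%). Among the 174 shoot rises 28 passed as larger in shoots, and among the 61 shoot decreases 36 passed as smaller in shoots. Since both sets were chosen for large shoot steps, these counts are a description.

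ROF2 was at 919 and 1169 in roots at 0.5 h, against 168 and 251 at 0.25 h. Its root step was 2.27 ± 0.22 SE, and the shoot step exceeded it by 1.66 ± 0.32 (limma adjusted p = 0.004). Hop3 (difference 1.5 ± 0.29, limma adjusted p = 0.0045), AT3G14200 (2.06 ± 0.34, limma adjusted p = 0.0012), AT2G19310 (1.07 ± 0.23) and AT3G09440 (1.02 ± 0.27, limma adjusted p = 0.0371) also passed as larger in shoots. In all but AT2G19310 the root signal at 0.25 h was above the shoot signal at that time. AT3G14200, for example, was at 80.7 and 117 in roots at 0.25 h. For AT1G54050, at 429 and 563 in roots at 0.5 h against 36.9 and 64.6 at 0.25 h, the steps differed by 0.30 ± 0.39 (limma adjusted p = 0.757).

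Over the 20 largest named shoot decreases the median root step was −0.11. AT2G47440 was at 144 and 125 in roots at 0.5 h, against 142 and 131 at 0.25 h, and the steps differed by −1.84 ± 0.23 (limma adjusted p = 3.66e-05). AT1G25550 was at 335 and 297 in roots at 0.5 h, against 237 and 243 at 0.25 h, so that its root difference was 0.38 and the steps differed by −1.65 ± 0.16 (limma adjusted p = 1.49e-06). AT2G25735 was lower in both tissues, with −1.10 in shoots and −1.15 in roots, and its steps differed by 0.05 ± 0.32. It fell in roots by the rule, as did AT4G32800 with −1.04.

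Plastid-encoded genes were set apart in the same way, with 13 of 69 passing as smaller in shoots (0.614% of all probe sets) and 0 as larger. Their median was −0.15 in shoots and 0.38 in roots. In roots 9 rose (beside 0.793% of all probe sets) and 56 lay above 0 (beside 49.1%). Among mitochondrion-encoded genes the medians were −0.09 in shoots and 0.44 in roots. There nad4 was at −0.11 ± 0.18 in shoots and 1.08 ± 0.18 in roots, a difference of −1.19 ± 0.25 (limma adjusted p = 0.00942). Signs of RNA composition moved in roots over the same step. The signal of 25S ribosomal RNA was 2230 and 2601 in roots at 0.5 h, against 878 and 566 at 0.25 h, and the actin 3′/5′ ratio was 14.7 and 15.0 at 0.5 h, against 11.6 and 10.4 at 0.25 h. In shoots 25S ribosomal RNA was at 110 and 114 at 0.5 h, against 180 and 112 at 0.25 h. Their part in the tissue difference of the organelle genes was not tested.

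STZ fell in roots, to 252 and 221 at 0.5 h, against 738 and 780 at 0.25 h (−1.64 ± 0.22), while its shoot difference was −0.09. The steps differed by 1.55 ± 0.31 (limma adjusted p = 0.00555).

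**Figure D4:**
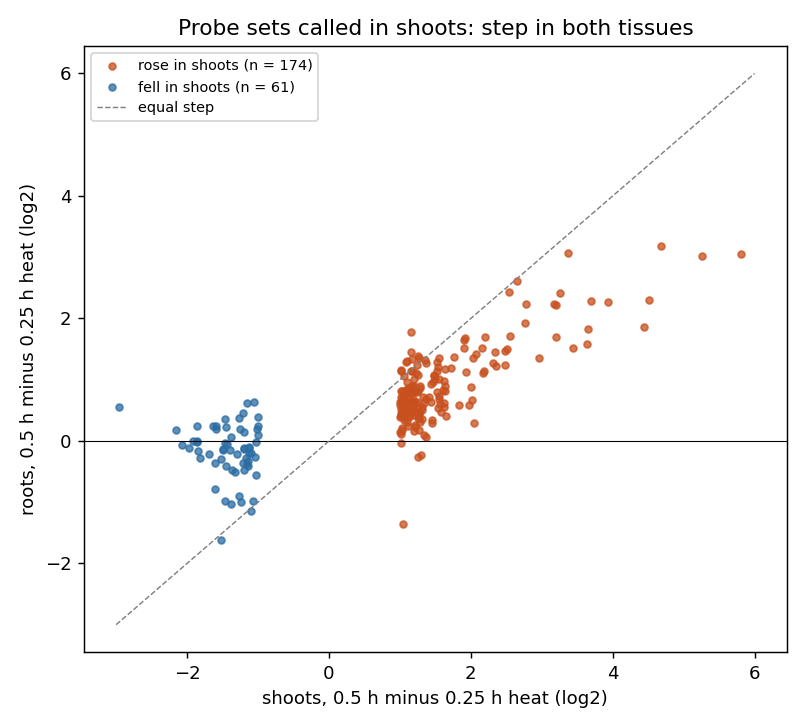
Log2 step from 0.25 h to 0.5 h of heat in shoots (horizontal) and in roots (vertical) for the 174 probe sets that rose and the 61 that fell in shoots, 1 point each, with a dashed line where the steps are equal. The rises lie mostly above 0 in roots, with a median of 0.80, and the decreases scatter around a root median of −0.13.

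The later levels in shoots are given without a test, because the 0.5 h arrays that chose the genes are part of each comparison. Of the 174 rises 82 had both 1 h arrays above both 0.5 h arrays (47.1%, beside 17.2% of all probe sets). Another 62 had both 1 h arrays below both 0.5 h arrays (35.6%, beside 40.3%). Relative to 0.25 h, 157 had both arrays higher at 1 h (22.9% of all probe sets) and 151 at 3 h (30.4%). All 14 chaperone list members that rose were higher at 1 h than at 0.5 h, by a median of 5.78 times in mean signal. The 35 rises of log2 2 or more and the 139 smaller ones differed in this respect. Both 1 h arrays were above both 0.5 h arrays in 33 of the 35, and in 49 of the 139.

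The small heat shock protein gene AT1G53540 had the highest ratio of 1 h to 0.5 h mean signal among the 82 named rises. It was at 2.35 and 11.7 after 0.25 h, 73.2 and 29.6 after 0.5 h, 5721 and 5236 after 1 h and 6031 and 6056 after 3 h, a 1 h mean 107 times its 0.5 h mean. AT2G29500 was at 6.99 and 2.60 after 0.25 h, 268 and 58.2 after 0.5 h, 5739 and 4979 after 1 h and 5668 and 5759 after 3 h, so that its 1 h mean was 32.9 times its 0.5 h mean. AT5G37670 was at 4374 and 3950 after 1 h (27.6 times its 0.5 h mean), AT5G25450 at 3996 and 3400 (16.9 times), AT5G51440 at 3696 and 3538 (11.7 times) and Hop3 at 3650 and 3467 (9.34 times). In linear signal, most of the increase of these transcripts between 0.25 h and 1 h therefore lay after 0.5 h. ROF2 stood at 5915 and 5490 after 1 h, 4.71 times its 0.5 h mean.

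Other rises went on less steeply or not at all. SEC31B was at 22.9 and 22.8 after 0.25 h, 134 and 101 after 0.5 h, 114 and 101 after 1 h and 88.5 and 70.4 after 3 h, with a 1 h mean of 0.913 times the 0.5 h mean. AT3G14200 was at 844 and 691 after 1 h (1.85 times) and 500 and 433 after 3 h. AT3G09440 was at 3887 and 3381 after 1 h (2.11 times) and AT1G14200 at 1386 and 1291 (2.78 times), followed by 366 and 292 after 3 h. AT1G14200 was thus back within its 0.5 h range at 3 h on 1 of its arrays. Some smaller rises ended sooner. The lowest ratio of 1 h to 0.5 h mean signal among the 82 was 0.0726, in AT3G52710, which was at 22.7 and 21.9 after 0.5 h and 1.15 and 2.09 after 1 h. AT1G78170, picked after its values were seen, was at 87.3 and 115 after 0.25 h, 222 and 204 after 0.5 h, 50.7 and 48.7 after 1 h and 90.5 and 96.7 after 3 h.

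**Figure D5:**
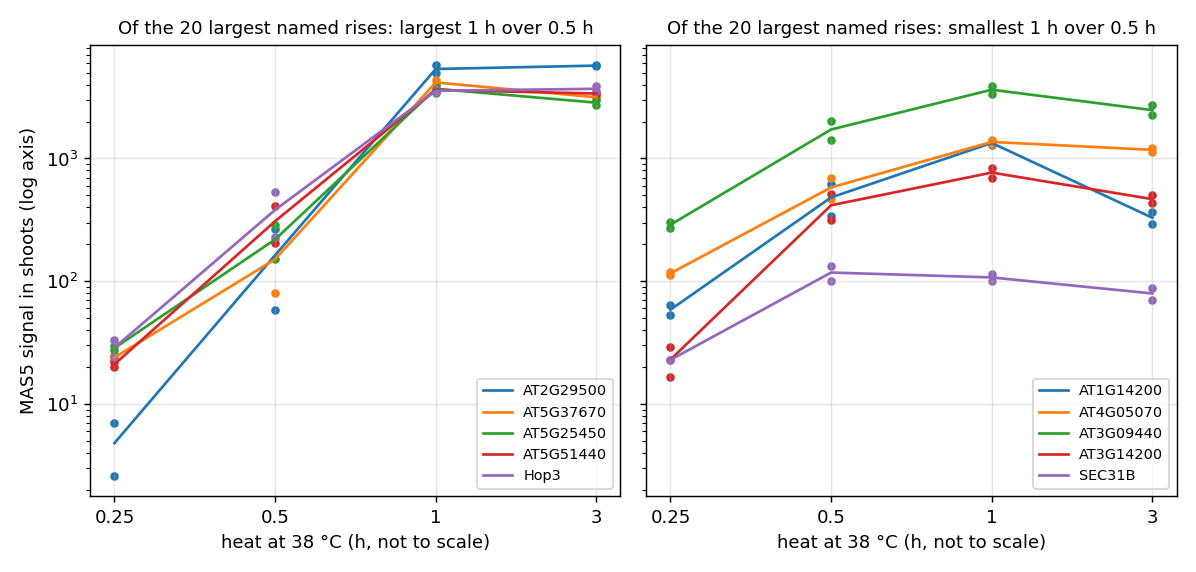
MAS5 signal in shoots (log axis) at 0.25, 0.5, 1 and 3 h of heat for those of the 20 largest named rises with the 5 highest and the 5 lowest ratios of 1 h to 0.5 h mean signal, with lines through the means and 1 point per array. AT2G29500 was 32.9 times higher at 1 h than at 0.5 h, and SEC31B was at 0.913 times its 0.5 h mean.

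Most transcripts that fell were higher at 3 h than at 0.5 h. Of the 61, 48 had both 3 h arrays above both 0.5 h arrays (78.7%, beside 28.2% of all probe sets), and 25 did so at 1 h. Relative to 0.25 h, 51 had both arrays lower at 1 h (42.6% of all probe sets) and 35 at 3 h (46.2%), while 14 had both arrays higher at 3 h. BZIP53 was at 407 and 325 after 0.25 h, 145 and 167 after 0.5 h, 324 and 203 after 1 h and 788 and 860 after 3 h. AT2G27420 was at 21.8 and 25.4 after 1 h and 12.3 and 10.9 after 3 h, so its level went on down. AT1G04770 was lower still at 1 h, with 35.03 and 30.2, and at 170 and 202 after 3 h. The 1 h replicates of several genes lay far apart, as in EXO, which was at 834 and 185 after 1 h and at 886 and 925 after 3 h. The plastid gene psbD was at 3292 and 2143 after 1 h, 22.4 times its 0.5 h mean, and at 2699 and 2442 after 3 h. The signal of 25S ribosomal RNA in shoots was 110 and 114 after 0.5 h, 1789 and 2044 after 1 h and 2411 and 2400 after 3 h. The actin 3′/5′ ratio was 5.86 and 3.82 after 0.5 h, 14.9 and 4.72 after 1 h and 13.2 and 14.1 after 3 h. The part of these shifts in the later levels was not tested.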

How the data were processed

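RNA of shoots and roots was measured on Affymetrix ATH1 arrays, 32 in 16 groups of 2. The deposited values are MAS5 signals on a linear scale, per the submitters' processing notes, and no version of that algorithm was given there. Of 22810 probe sets 64 controls were left out. Genes were named through the platform annotation and the RefSeq table of TAIR10.1: 13513 probe sets had 1 gene, 503 several and 8730 none named here. No coordinates are printed, since the sources name no build for the array. Signals were transformed as log2(signal + 10.7), which understates differences at low signal. A filter kept 16782 probe sets that exceeded the 40th percentile of the array on both replicates in 1 or more groups, and 5964 were removed. A model of 16 group means over all 32 arrays was fitted in R 4.3.3 by lmFit and eBayes with a trend (limma 3.58.1, 16 residual degrees of freedom). It was tested on simulated data first. P-values were adjusted by Benjamini-Hochberg over all probe sets kept.

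Named genes were the 20 largest increases and decreases that passed, had 1 gene and did not overlap, the 5 largest tissue differences each way, and up to 6 members per list. Of these, some list members are given only within a range or median. The members and lists were chosen with earlier results of these data known. A locus without a symbol carries only the role of its list. The jasmonate list had 0 named probe sets, the heat regulator list 1 of 25. No sequences were given for these genes and none are shown. Replicate numbers are shared across groups, but deviations of same-numbered arrays correlated at only 0.02 in shoots and 0.08 in roots. Python 3.11.15, pandas 2.3.3 and matplotlib 3.10.9 prepared tables and figures.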

Additional observations from a re-analysis of the deposited data

Results flagged for a closer look

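In 10 genes the step from 0.25 h to 0.5 h of heat differed between shoots and roots by the largest amounts that passed, in limma with Benjamini-Hochberg adjustment. AT4G27652 was at 53.5 and 26.3 in shoots at 0.5 h, against 12.04 and 19.6 at 0.25 h, and at 37.4 and 49.8 in roots at 0.5 h, against 257 and 345 at 0.25 h (shoot step minus root step 3.41 ± 0.30 SE, adjusted p = 6.64e-07). AT4G27657 rose in shoots by 1.04, to 34.5 and 25.4 at 0.5 h, against 9.57 and 8.18 at 0.25 h, and was at −1.35 in roots (2.39 ± 0.24, adjusted p = 2.12e-06). AT4G27654 had a difference of 2.09 ± 0.28, with 0.43 in shoots and −1.66 in roots. These 3 genes follow each other on chromosome 4 with no annotated gene between them in TAIR10.1. For AT3G19430 (2.32) and AT1G52060 (2.25) the shoot signals were under 20 on all 4 arrays, and the root steps were −2.06 and −2.02.

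The shoot step was smaller in AT2G30670 (−2.13 ± 0.24, with −0.29 in shoots and 1.84 in roots). It was likewise smaller in AT3G60420 (−2.09), whose shoot signals were between 8.80 and 20.3 and whose difference was −0.997 with a constant 4 times as large. In AT1G04770 (−2.0 ± 0.24) and AT3G19680 (−1.89 ± 0.34) the shoot decrease had no counterpart past the rule in roots over this step. Their root steps were −0.07 and 0.25. Roots were lower in AT1G04770 after 1 h of heat, at 69.5 and 90.5, against 292 and 276 at 0.5 h. In EXO the shoot step was also smaller than the root step (−2.11 ± 0.55, limma adjusted p = 0.0334). This call was lost without any 1 of the 8 arrays compared other than 0.25 h replicate 2 of shoots, and with no filter on low signal, with adjusted p between 0.0596 and 0.176.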

How the results depend on the processing

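A constant 4 times as large left 93 rises and 35 decreases in shoots, 64 and 35 in roots, and 52 and 47 tissue differences larger and smaller in shoots. All 93 and 35 shoot calls were among the 174 and 61. With the constant divided by 4, 123 fell in shoots. Leaving out 1 array gave 168 to 201 rises and 58 to 82 decreases in shoots, 128 to 147 and 82 to 131 in roots, and 71 to 137 larger and 70 to 131 smaller tissue differences. List members that rose ranged from 16 to 18 and those that fell from 1 to 6, against 2 in the reported fit and 1 with arrays of 1 tissue only. The 6 came without 0.25 h replicate 2 of shoots. With the replicate number as a block, 174 rose and 61 fell in shoots, and no count moved by over 1.5 times. Since the numbers were not shown to pair the arrays, the block carries no weight. Quantile normalization gave 153 and 56 in shoots, 75th percentile scaling 166 and 66, and no filter 175 and 61. Of 1629 single-gene results under the alternatives, 1578 kept direction and side of the threshold, 40 no longer passed, 11 newly passed and 0 changed sign among called values. The cause was not tested. Signals near or under the added constant limit 23 of the 174 rises, whose mean at 0.25 h lay below it.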
